A study of Mus musculus with 9 samples.

Results

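The immediate early genes described here are 10 members chosen by name: the orphan nuclear receptors Nr4a1, Nr4a2 and Nr4a3, the AP-1 subunits Fos, Fosb, Jun and Junb, the zinc finger factor Egr1, the ATF family factor Atf3, and Ier2. All 10 were found, by gene ID, among the 16873 genes measured in each library. They were chosen with results of these data known, so their values are given as descriptions, without p-values. RNA was sequenced from mouse heart in 3 groups of 3 libraries: saline-treated wild-type (WT) mice, doxorubicin-treated (DOX) WT mice, and doxorubicin-treated mice lacking Sting (Sting-/-). Doxorubicin, a chemotherapy agent of the anthracycline class, is toxic to heart muscle, and the study used low doses to model chronic cardiotoxicity. Sting (gene symbol Sting1) acts below cGAS, a sensor of DNA in the cytosol, and turns on interferon and inflammatory genes. Strain, age, sex, dose, the time from the last dose to collection of the heart and the way hearts were collected are not given in the sources used here. No Sting-/- heart without doxorubicin was analysed here, so an effect of genotype without the drug is part of each comparison with that group. Whether libraries of 1 group are separate animals is not stated, so the spread between them may be technical.

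Immediate early genes are switched on within minutes of a stimulus by factors already present in the cell, without new protein synthesis, and their short-lived RNAs soon fall again. Serum response factor, at CArG boxes, and CREB, at cAMP response elements (CRE), are their best known activators. In heart muscle they answer stretch, adrenergic and other hormonal signals and ischaemia, and the handling of tissue before RNA is preserved can move them as well. JUN and FOS proteins pair to form AP-1, NR4A receptors bind DNA without a known natural hormone, and EGR1, ATF3 and IER2 act in the nucleus as early regulators of transcription.

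The promoters of the 3 Nr4a genes are shown because they share a sequence feature that the choice of members did not use, with Junb, the member with the largest positive difference in WT DOX hearts, for comparison. RefSeq start sites (build GRCm38.p6, which is not the build the study used for its reads) gave a promoter for 8 of the 10 members, all but Egr1 and Ier2. The 250 bases before each start were searched. The windows printed lie at chr15:101266596-101266845 (Nr4a1, plus strand), chr2:57124004-57124253 (Nr4a2, minus strand), chr4:48045055-48045304 (Nr4a3, plus strand) and chr8:84978749-84978998 (Junb, minus strand). Each is written 5′ to 3′ on the strand of its gene and ends at the base before the start site. Capitals mark the core of the CRE, TGACG, or its reverse complement.
Nr4a1: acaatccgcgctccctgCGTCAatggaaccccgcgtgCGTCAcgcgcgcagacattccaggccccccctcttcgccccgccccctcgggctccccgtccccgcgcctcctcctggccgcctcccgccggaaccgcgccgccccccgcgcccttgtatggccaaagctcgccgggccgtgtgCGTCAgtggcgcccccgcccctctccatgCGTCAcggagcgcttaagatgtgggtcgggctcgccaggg
Nr4a2: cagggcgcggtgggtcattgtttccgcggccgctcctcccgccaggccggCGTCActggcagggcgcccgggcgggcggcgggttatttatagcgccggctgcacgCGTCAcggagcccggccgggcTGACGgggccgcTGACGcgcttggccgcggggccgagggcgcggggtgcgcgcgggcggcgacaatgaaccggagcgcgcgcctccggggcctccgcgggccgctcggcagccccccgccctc
Nr4a3: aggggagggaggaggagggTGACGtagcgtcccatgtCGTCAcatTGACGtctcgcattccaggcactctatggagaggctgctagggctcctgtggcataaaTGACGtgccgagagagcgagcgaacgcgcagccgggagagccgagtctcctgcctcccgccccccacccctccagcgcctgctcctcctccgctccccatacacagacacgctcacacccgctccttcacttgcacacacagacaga
Junb: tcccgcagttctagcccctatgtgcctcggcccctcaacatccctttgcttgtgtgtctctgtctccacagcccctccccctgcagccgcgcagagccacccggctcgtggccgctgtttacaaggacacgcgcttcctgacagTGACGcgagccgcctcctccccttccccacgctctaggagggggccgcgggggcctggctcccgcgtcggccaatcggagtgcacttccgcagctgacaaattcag
Nr4a1, Nr4a2 and Nr4a3 each held 4 CRE cores, a number reached by 0.137% of the 32851 promoters in the table (45 promoters). The limit of 4 is the count of these same promoters and was not planned, so this share is a description only. In Nr4a1 the matches began 233, 213, 69 and 40 bases before the start site. Fos held 2 cores, Fosb, Junb and Atf3 held 1 each, and Jun held 0, so that 7 of 8 member promoters had at least 1, against 17.8% of all promoters. Windows rich in GC, as these are (58.4% to 80.0%), were not compared separately. The full palindrome TGACGTCA (1.55% of all promoters), which would hold overlapping cores on both strands, the AP-1 site TGACTCA (4.46%) and the CArG box (1.47%) were in 0 of the 8 windows. Both strands were searched for every motif, and a match describes letters only. Sites further upstream, or with letters that differ from the motif, were not searched, so 0 matches does not show that a gene lacks such sites.

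Levels are in FPKM, fragments normalised to transcript length and to the library's total, which allows comparison between genes. Differences are given on the log2(FPKM + 1) scale with a standard error (SE) from limma, a linear model fitted across 12485 genes, those averaging 1 FPKM or more. Nr4a3 (mean 0.760 FPKM) and Fosb (mean 0.823 FPKM) lay below this limit, Nr4a2 (mean 1.49 FPKM) lay just above it, and 8 of the 10 members were therefore in the fit. Nr4a2 was in the fit only through the saline and Sting-/- DOX groups, since its WT DOX level was below the limit. Some genes of the lists described below, Batf, Batf3 and Dusp2 among them, averaged below it in saline. They were in the fit only through DOX groups where they were higher, and such genes enter counts of rises more readily than counts of falls.

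Sting1, the deleted gene, was at 5.10 to 5.93 FPKM in saline libraries, 17.5 to 18.0 in WT DOX and 0.06, 0 and 0 in Sting-/- DOX, in the direction of their labels. The heart label held in every library, with summed cardiomyocyte markers of 50320 to 52170 FPKM (saline), 32600 to 33650 (WT DOX) and 7817 to 8358 (Sting-/- DOX). Depth is not given, and whole-read steps of low values put it at about 8200000 to 13400000 fragments per library, lowest in the Sting-/- group. Groups differed over most of the transcriptome, and the scale between them was not fixed: with median-ratio scaling the median log2 difference of all genes tested moved from 0.13 to -0.09 (WT DOX minus saline), from 0.25 to -0.05 (Sting-/- DOX minus WT DOX) and from 0.49 to -0.02 (Sting-/- DOX minus saline). The share of calls that were higher moved with it, from 67.8% to 41.2%, from 64.6% to 46.7% and from 70.9% to 49.0%. With that scaling, 3582 of the 12485 genes tested were called higher and 5109 lower in WT DOX against saline. The numbers were 4709 and 5385 in Sting-/- DOX against WT DOX, and 5281 and 5493 in Sting-/- DOX against saline. List counts given below with median-ratio scaling are to be read beside these numbers. Small differences of single members are therefore given with their value under that scaling.

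The members did not move as 1 block. In WT DOX hearts Nr4a1 and Nr4a2 were far below saline, Fos was slightly lower, Jun was level in FPKM, and Junb, Atf3 and Ier2 were higher. In FPKM, Sting-/- DOX hearts held 2.11-fold to 3.24-fold more Egr1, Ier2, Nr4a2 and Fosb than WT DOX hearts on average, while Nr4a1 stayed far below saline. Of the 8 members in the fit, 4 were called higher and 3 lower in the WT DOX group relative to saline at an adjusted p of 0.05, where 66.7% of all genes tested were called (45.3% higher and 21.5% lower). Against WT DOX, 7 of the 8 were called higher and 0 lower in Sting-/- DOX (Fos was not called), where 83.8% of all genes were called (54.1% higher and 29.7% lower). Against saline, 5 were called higher and 2 lower in Sting-/- DOX, where 88.9% of all genes were called (63.0% higher and 25.9% lower). With median-ratio scaling these counts were 3 higher and 4 lower, 4 higher and 2 lower, and 4 higher and 3 lower. Of all 12485 genes tested, 3582 were then called higher and 5109 lower, 4709 and 5385, and 5281 and 5493. Over all 10 members, the ranges of the groups did not overlap for 4 higher and 3 lower members in WT DOX against saline (71.7% of genes tested, 47.8% higher and 23.8% lower). The same counts were 9 higher and 0 lower in Sting-/- DOX against WT DOX (84.8%, 54.7% and 30.1% of genes tested) and 6 higher and 2 lower in Sting-/- DOX against saline (89.2%, 63.2% and 26.0%). The members were chosen with these contrasts in view, and nothing is read from the counts. The comparisons share libraries and are not independent of each other.

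**Figure D1:**
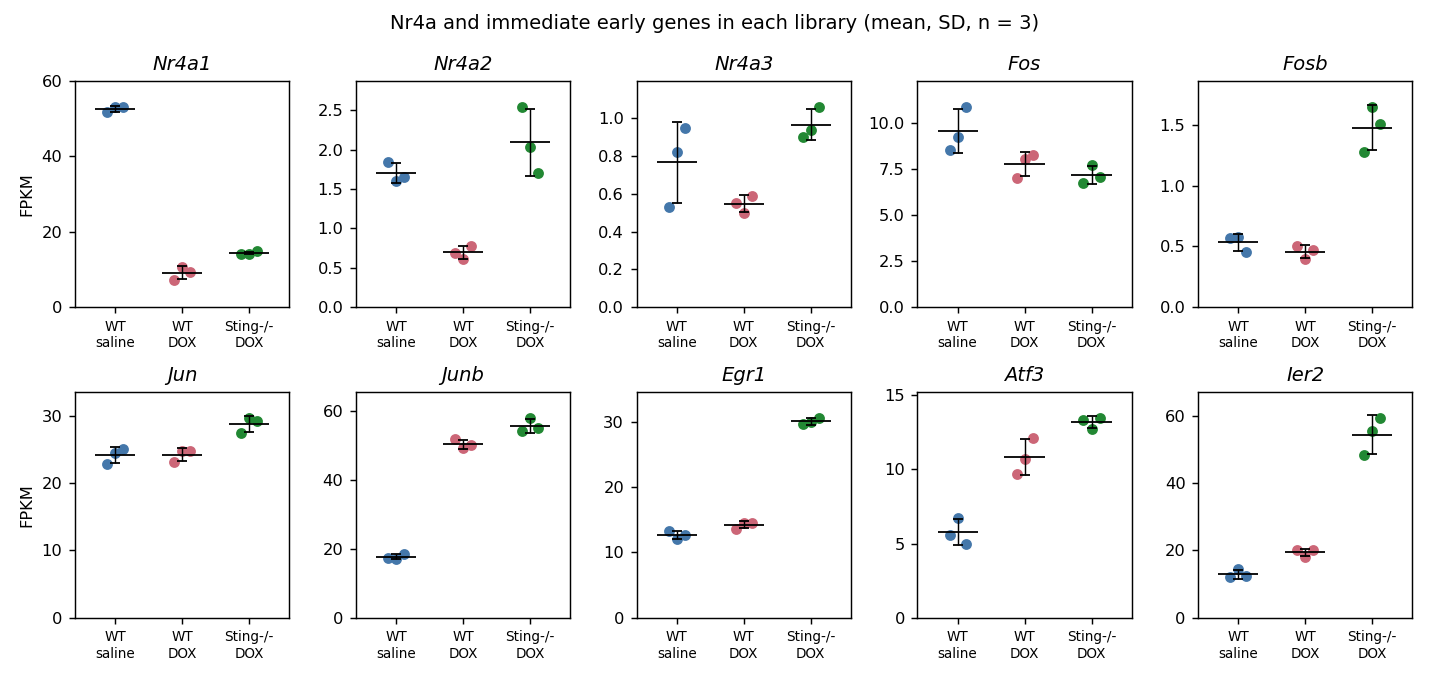
FPKM of each member in each library (vertical axis, linear from 0), by group (horizontal axis), with the mean as a line and the SD as a bar (n = 3 libraries per group). The mean of Nr4a1 was 52.7 FPKM in saline and 9.07 in WT DOX, and Egr1 and Ier2 stood apart in the Sting-/- DOX libraries.

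Nr4a1 (NUR77), the founding member of its receptor family and a regulator of metabolism and inflammation, was at 51.82, 53.14 and 53.02 FPKM in the saline libraries. It was at 7.22, 10.58 and 9.40 FPKM in WT DOX and at 14.20, 14.13 and 14.80 FPKM in Sting-/- DOX. The 3 groups did not overlap, and the gap between the lowest saline and the highest WT DOX library was wider than the whole level of any DOX library. The mean was 5.81-fold lower in WT DOX than in saline, a log2 difference of -2.43 (SE 0.096), the most negative of all 12485 genes tested. That rank was taken on the log2(FPKM + 1) scale only, where the added 1 shrinks differences of genes at low levels. Sting-/- DOX was 1.59-fold above WT DOX (log2 difference 0.63, SE 0.096) and 3.66-fold below saline (-1.80, SE 0.096). Spread was uneven, with a coefficient of variation of 1.39% in saline, 18.8% in WT DOX and 2.56% in Sting-/- DOX, where the median gene tested had 5.79%, 5.60% and 5.65%.

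Nr4a2 (NURR1), known best for its part in dopamine neurons, was at 1.84, 1.60 and 1.65 FPKM in saline, 0.69, 0.61 and 0.78 in WT DOX, and 2.54, 2.03 and 1.70 in Sting-/- DOX. WT DOX lay below both other groups without overlap, and saline and Sting-/- DOX overlapped. The log2 difference was -0.67 (SE 0.105) in WT DOX against saline and 0.86 (SE 0.105) in Sting-/- DOX against WT DOX. Sting-/- DOX against saline gave 0.19 (SE 0.105), but it turned to -0.20 when scaled by median ratio and to -0.42 with quantile normalization, which passed the threshold as lower. Without Sting-/- DOX library 3 it was 0.28 and passed the threshold as higher.

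Nr4a3 (NOR1), the third receptor, was at 0.53, 0.82 and 0.95 FPKM in saline, 0.55, 0.50 and 0.59 in WT DOX, and 0.90, 0.94 and 1.06 in Sting-/- DOX. Saline overlapped both DOX groups, and the Sting-/- DOX libraries lay above all WT DOX libraries, by 0.31 FPKM at the nearest. Its log2 differences, outside the fit and with no SE, were -0.19 in WT DOX against saline and 0.35 in Sting-/- DOX against WT DOX. All 3 receptors thus had their lowest mean in WT DOX.

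Nr4a1 made up nearly the whole family in saline hearts and less of it after doxorubicin. Its share of the summed FPKM of the 3 receptors, which no scaling between libraries can change, was 95.5% ± 0.18 in saline, 87.7% ± 2.61 in WT DOX and 82.5% ± 1.90 in Sting-/- DOX (SD, n = 3 each). The sum was 55.1 ± 0.809, 10.3 ± 1.66 and 17.4 ± 0.291 FPKM. Nr4a2 held 2.9% to 3.4%, 5.2% to 8.2% and 9.7% to 14.4% of it and, on average, Nr4a3 held 1.4%, 5.4% and 5.5%.

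**Figure D2:**
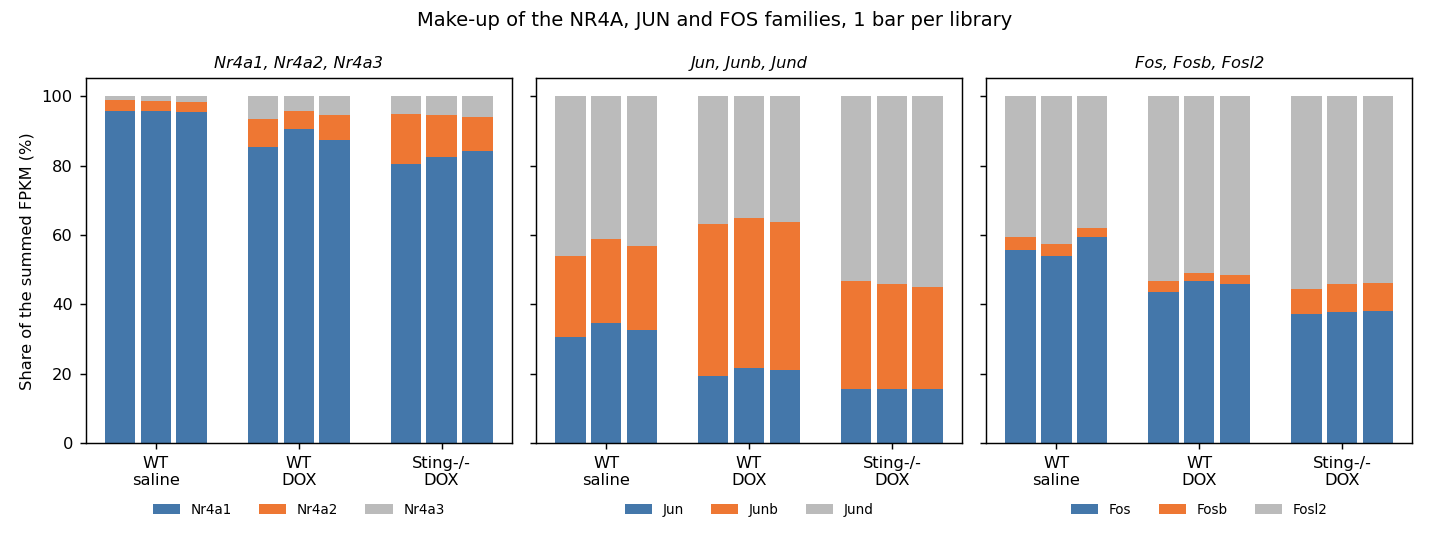
Share of the summed FPKM (%, vertical axis) held by each gene of the NR4A, JUN and FOS families, 1 bar per library, grouped by treatment and genotype. Nr4a1 held 95.3% to 95.6% of its family in saline and 80.5% to 84.3% in Sting-/- DOX, and Junb held its largest share of the JUN family in WT DOX.

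Fos, the subunit that pairs with JUN proteins in AP-1, was at 8.51, 9.23 and 10.84 FPKM in saline, 7.01, 8.02 and 8.22 in WT DOX, and 6.71, 7.69 and 7.06 in Sting-/- DOX. All saline libraries were above all DOX libraries, by a narrow margin, and the DOX groups overlapped. The log2 difference in WT DOX against saline was -0.26 (SE 0.087), and it no longer passed the threshold without saline library 3 (-0.18) or WT DOX library 1 (-0.20). Sting-/- DOX against WT DOX gave -0.10 (SE 0.087), and passed the threshold as lower when scaled by median ratio (-0.40) or quantile normalized (-0.39).

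Fosb, a FOS relative known for its lasting splice form in neurons, was at 0.57, 0.58 and 0.45 FPKM in saline, 0.50, 0.40 and 0.47 in WT DOX, and 1.28, 1.65 and 1.51 in Sting-/- DOX. The Sting-/- DOX libraries were all above the others, 3.24-fold over WT DOX on average, and the WT groups overlapped. Within the set of Fos, Fosb and Fosl2, Fos held 56.3% ± 2.83 in saline, 45.4% ± 1.49 in WT DOX and 37.7% ± 0.47 in Sting-/- DOX (SD, n = 3 each). Fosl2, a slower FOS relative and not a member, held 40.5%, 52.0% and 54.5% on average, while the sum of the 3 moved little, at 16.9 ± 1.51, 17.1 ± 0.968 and 19.0 ± 1.195 FPKM.

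Jun (c-JUN), the AP-1 subunit activated by JNK, was at 22.83, 24.48 and 25.14 FPKM in saline, 23.10, 24.76 and 24.80 in WT DOX, and 27.48, 29.73 and 29.18 in Sting-/- DOX. The WT groups overlapped, with a log2 difference of 0.004 (SE 0.052), and Sting-/- DOX lay above both. Jun passed the threshold as lower in WT DOX hearts when scaled by median ratio (-0.24) or quantile normalized (-0.18). The Sting-/- DOX difference of 0.24 against WT DOX (SE 0.052) was -0.09 with median-ratio scaling, and that of 0.25 against saline (SE 0.052) was -0.33, so the direction for Jun rests on the scale in all 3 comparisons.

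Junb, an AP-1 subunit that can oppose c-JUN, was at 17.42, 17.18 and 18.63 FPKM in saline, 51.88, 49.33 and 50.07 in WT DOX, and 54.27, 58.10 and 55.05 in Sting-/- DOX. Every DOX library was far above every saline library, by at least 30.7 FPKM. WT DOX was 2.84-fold over saline, a log2 difference of 1.46 (SE 0.046). Sting-/- DOX was 1.11-fold over WT DOX (0.14, SE 0.046), a difference of -0.19 with median-ratio scaling and 0.11, not past the threshold, without Sting-/- DOX library 2. The ratio of Junb to Jun within a library, free of any scaling, went from 0.735 ± 0.031 in saline to 2.09 ± 0.139 in WT DOX and 1.94 ± 0.046 in Sting-/- DOX (SD, n = 3 each). Junb held 23.9% of the JUN family in saline, 43.2% in WT DOX and 30.2% in Sting-/- DOX, where Jund, a constitutive JUN relative and not a member, held 54.2% ± 0.70.

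Egr1, a zinc finger factor that binds GC-rich promoters, was at 13.24, 12.09 and 12.61 FPKM in saline, 13.57, 14.56 and 14.49 in WT DOX, and 29.58, 29.94 and 30.58 in Sting-/- DOX. The WT groups stood 0.33 FPKM apart and the Sting-/- DOX libraries far above both. Sting-/- DOX was 2.11-fold over WT DOX, a log2 difference of 1.03 (SE 0.050). The WT DOX difference from saline, 0.16 (SE 0.050), turned to -0.08 when scaled by median ratio and to -0.06 with quantile normalization. It no longer passed the threshold without saline library 2 (0.13) or WT DOX library 3 (0.14).

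Atf3, a stress-induced factor that can repress inflammatory genes, was at 5.58, 6.72 and 4.99 FPKM in saline, 9.72, 10.70 and 12.13 in WT DOX, and 13.35, 12.74 and 13.49 in Sting-/- DOX. The groups were ordered saline, WT DOX, Sting-/- DOX without overlap. WT DOX was 1.88-fold over saline (log2 difference 0.81, SE 0.094). Sting-/- DOX was 1.22-fold over WT DOX (0.27, SE 0.094), which turned to -0.05 when scaled by median ratio and was 0.02 with quantile normalization. Leaving out WT DOX library 1, Sting-/- DOX library 1 or Sting-/- DOX library 3 also took it below the threshold (0.20, 0.26 and 0.25).

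Ier2, which encodes a small nuclear protein induced by growth factors, was at 12.03, 14.43 and 12.40 FPKM in saline, 20.15, 18.14 and 20.05 in WT DOX, and 48.27, 55.61 and 59.49 in Sting-/- DOX. The groups were ordered without overlap, and the Sting-/- DOX libraries stood far above the rest. WT DOX was 1.501-fold over saline (log2 difference 0.55, SE 0.083) and Sting-/- DOX 2.80-fold over WT DOX (1.44, SE 0.083). The ratio of Ier2 to Egr1 ran from 0.91 to 1.19 over the saline libraries, from 1.25 to 1.48 over WT DOX libraries and from 1.63 to 1.95 over Sting-/- DOX libraries.

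**Figure D3:**
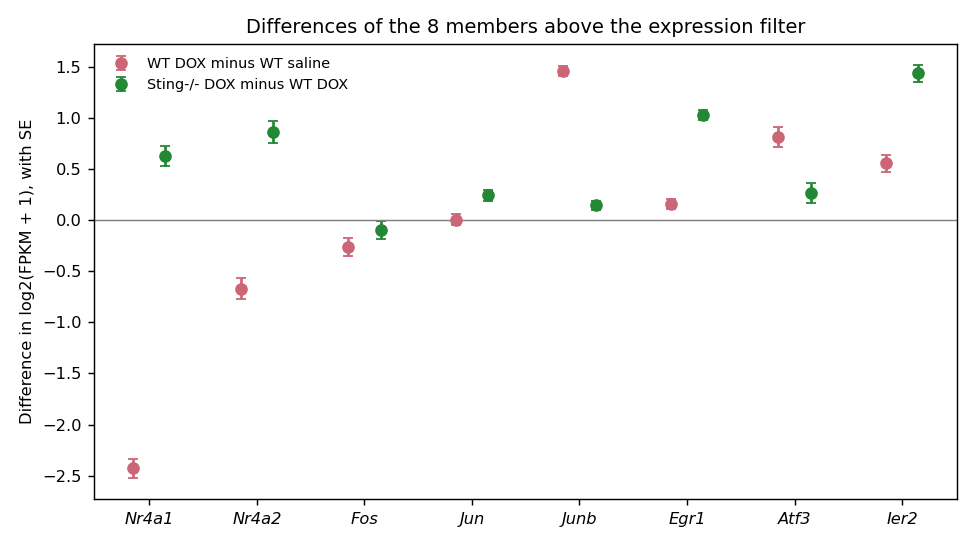
Difference in log2(FPKM + 1) of the 8 members in the fit (vertical axis) with its SE, for WT DOX minus WT saline and Sting-/- DOX minus WT DOX. Nr4a1 lay at -2.43 and Junb at 1.46 in the former, and Ier2 at 1.44 and Egr1 at 1.03 in the latter. Jun, Junb and Atf3 in the latter and Jun and Egr1 in the former changed sign with median-ratio scaling.

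The members' order between genes changed with the group. In saline hearts Nr4a1 was the highest member, and the ratio of Egr1 to Nr4a1 was 0.240 ± 0.014, against 1.60 ± 0.257 in WT DOX and 2.09 ± 0.027 in Sting-/- DOX (SD, n = 3 each). The ratio of Junb to Nr4a1 was 0.337 ± 0.014 in saline, 5.72 ± 1.31 in WT DOX and 3.88 ± 0.204 in Sting-/- DOX. Within groups no single library was high for all members: the highest value fell in library 1, 2 and 3 for 2, 4 and 4 members in saline, 3, 2 and 5 in WT DOX, and 1, 4 and 5 in Sting-/- DOX. The lowest value fell in Sting-/- DOX library 1 for 7 members.

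The 5 genes tested whose centred log2 values over the 9 libraries lay closest to those of Nr4a1 were Pkd2l2 (Euclidean distance 1.30), Retnla (1.42), Hspa1a (1.49), Gnb3 (1.56) and Phkg1 (1.57). The distances mostly reflect the 3 group means. Retnla, which encodes a secreted resistin-like protein, averaged 9.44, 1.64 and 5.39 FPKM in saline, WT DOX and Sting-/- DOX. Phkg1, which encodes the catalytic subunit of muscle phosphorylase kinase, averaged 12.2, 4.63 and 3.95 FPKM, and Gnb3, a G protein beta subunit, 6.79, 2.40 and 2.22 FPKM.

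Further lists of related genes, also chosen with results of these data known, are described by counts and levels, without p-values. Of 40 other immediate early and early response genes, 39 were measured and 38 tested. Of these, 30 rose and 5 fell in WT DOX against saline (limma, adjusted p of 0.05), and 28 rose and 6 fell with median-ratio scaling. The list's median log2 difference was 0.61, beside 0.13 for all genes tested, of which 45.3% were called higher and 21.5% lower. Thbs1, which encodes the matrix protein thrombospondin 1, rose from 1.55 to 18.1 FPKM, Ccn2, a matrix-associated growth factor, from 22.8 to 166.9 FPKM, and Socs3, which dampens cytokine signalling, from 2.12 to 19.9 FPKM. Sik1, a CREB-induced kinase that restrains CREB coactivators, fell from 16.5 to 7.93 FPKM (log2 difference -0.97, SE 0.083). Per1, a clock gene with CRE-driven induction, fell from 19.2 to 11.9 FPKM and Klf4, a vascular transcription factor, from 11.9 to 7.88 FPKM.

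In Sting-/- DOX against WT DOX the same list split, with 22 genes higher and 13 lower (19 and 16 with median-ratio scaling). Its median was 0.54, beside 0.25 for all genes, of which 54.1% were called higher and 29.7% lower. Klf4 was at 46.4 against 7.88 FPKM and Klf2, induced by blood flow in endothelium, at 131.6 against 25.3 FPKM, and Thbs1 was at 110.0 against 18.1 FPKM. Hbegf, an EGF receptor ligand, fell from 29.4 to 10.5 FPKM, Ier3, a stress response gene, from 101.1 to 44.7 FPKM and Per1 from 11.9 to 5.89 FPKM.

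**Figure D4:**
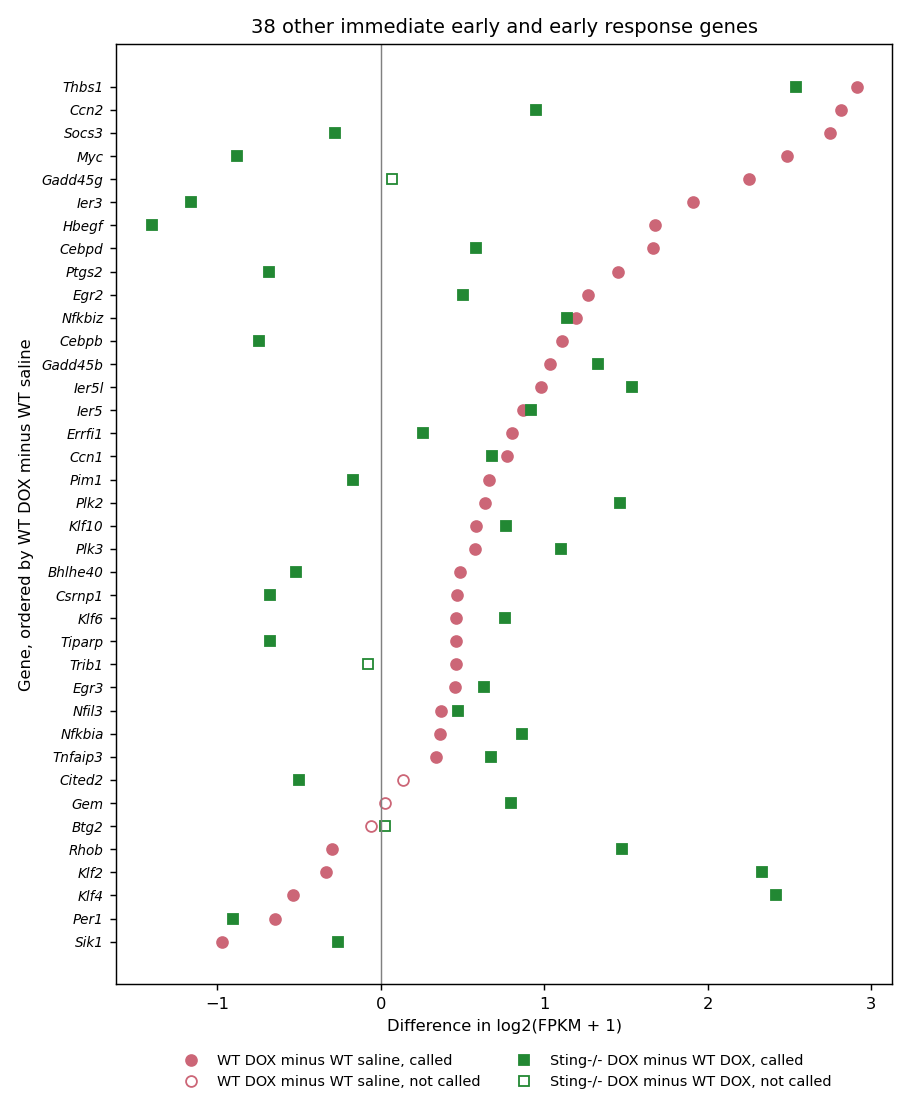
Difference in log2(FPKM + 1) (horizontal axis) of the 38 other immediate early and early response genes tested (vertical axis), ordered by WT DOX minus WT saline. Filled symbols passed the limma threshold and open ones did not, with 30 higher and 5 lower in WT DOX minus WT saline and 22 and 13 in Sting-/- DOX minus WT DOX. With median-ratio scaling these counts were 28 and 6, and 19 and 16. The comparisons share the WT DOX libraries, so the 2 values of a gene are not independent.

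The remaining AP-1, ATF and small Maf genes moved with the scale. In WT DOX, 10 of the 12 tested rose and 0 fell (2 were not called), with a median of 0.39, but with median-ratio scaling 6 rose and 2 fell. All genes tested had a median of 0.13, with 45.3% called higher and 21.5% lower. Maff, a small Maf protein, rose from 2.89 to 11.05 FPKM and Batf, an AP-1 factor of lymphoid and myeloid cells, from 0.780 to 3.45 FPKM, and Batf2 rose from 2.36 to 5.57 FPKM. Batf was in the fit only through the DOX groups, where it was higher. Comparing Sting-/- DOX with WT DOX, 8 rose and 1 fell, with a median of 0.35 beside 0.25 for all genes, of which 54.1% were called higher and 29.7% lower, and 3 rose and 3 fell with median-ratio scaling. Jdp2, a repressor that pairs with JUN proteins, rose from 7.04 to 19.8 FPKM, Jund by 1.23 on the log2 scale and Batf3 from 1.41 to 3.35 FPKM, while Atf1, a close relative of CREB, fell from 23.1 to 14.4 FPKM.

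Feedback genes, which end the response, changed in both directions. In WT DOX, 11 of the 19 tested rose and 3 fell, with a median of 0.37. The counts were 11 and 4 with median-ratio scaling and 10 and 5 with quantile normalization. All genes tested had a median of 0.13, with 45.3% called higher and 21.5% lower. Rcan1, a calcineurin inhibitor, rose from 33.9 to 98.2 FPKM (log2 difference 1.51, SE 0.061), and the MAP kinase phosphatase genes Dusp2 and Dusp6 rose from 0.170 to 1.56 and from 6.71 to 14.6 FPKM. Dusp2 was in the fit only through the DOX groups, where it was higher. Dusp1, itself an immediate early phosphatase, fell from 47.8 to 30.8 FPKM, Dusp10 from 4.81 to 3.59 FPKM and Dusp8 from 10.9 to 9.52 FPKM. Between the DOX groups, 11 were higher and 4 lower in Sting-/- (9 and 6 with median-ratio scaling), with a median of 0.43. The median of all genes was 0.25 there, with 54.1% called higher and 29.7% lower. Zfp36l1, an RNA decay factor, rose from 44.9 to 156.5 FPKM, Spry1 from 13.6 to 37.8 FPKM and Dusp1 from 30.8 to 70.0 FPKM, while Dusp5, Rcan1 and Dusp10 fell by 1.23, 1.10 and 0.84 on the log2 scale.

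Genes of the upstream kinases, factors and coactivators were called in both directions in WT DOX, in proportions that changed with the scale. Of 30 tested, 13 rose and 6 fell, with a median of 0.01, and 5 rose and 16 fell with median-ratio scaling, with a median of -0.21. Among all 12485 genes tested, 45.3% were called higher and 21.5% lower without that scaling, and 3582 genes were higher and 5109 lower with it. Rps6ka1, the RSK1 kinase, rose from 2.86 to 7.13 FPKM, Mrtfa, a serum response factor coactivator, from 2.71 to 5.68 FPKM and Map2k1, the MEK1 kinase, from 23.7 to 37.0 FPKM. Camk2d, the main cardiac calmodulin kinase, fell from 47.3 to 36.6 FPKM, Rps6ka5 from 2.81 to 2.05 FPKM and Mrtfb from 5.60 to 4.58 FPKM. Relative to WT DOX, 13 rose and 13 fell in Sting-/- DOX (11 and 17 with median-ratio scaling), beside 54.1% and 29.7% of all genes tested. Elk3 (from 16.6 to 61.5 FPKM), Mapk3 (from 52.2 to 151.7 FPKM) and Rps6ka1 (from 7.13 to 17.7 FPKM) were higher. Prkaca, the catalytic subunit of protein kinase A, which phosphorylates CREB, fell from 111.5 to 43.6 FPKM and Camk2d from 36.6 to 21.7 FPKM. Creb1, the gene of CREB itself, rose from 5.15 to 10.65 FPKM between the same groups.

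The retinoid X receptors, with which NR4A1 and NR4A2 can pair, were measured in full. In WT DOX, Rxrg fell from 55.2 to 40.1 FPKM and Rxra from 15.9 to 12.2 FPKM, and Rxrb was not called (lower with median-ratio scaling). Relative to WT DOX, in Sting-/- DOX Rxrg fell from 40.1 to 8.99 FPKM, and Rxrb rose from 14.9 to 23.5 FPKM and Rxra from 12.2 to 17.9 FPKM.

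Heat shock genes, which tissue handling can also move, did not change together. In WT DOX, 3 of 12 rose and 5 fell (2 and 8 with median-ratio scaling), with a median of -0.08. All genes tested had a median of 0.13, with 45.3% called higher and 21.5% lower. Hspa1a was at 5.83, 17.51 and 13.47 FPKM in saline, 3.19, 3.12 and 2.35 in WT DOX, and 3.22, 3.12 and 3.31 in Sting-/- DOX, and its near-identical copy Hspa1b at 6.29, 15.69 and 9.69, then 2.83, 3.04 and 3.94, then 3.43, 4.38 and 4.03. Both fell in WT DOX, as did Hsph1, from 15.3 to 11.5 FPKM, and how reads were divided between the copies is uncertain. The saline libraries differed 3.0-fold in Hspa1a, while Nr4a1 differed 1.03-fold and Fos 1.27-fold between them. Hspb1 and Hsp90aa1 rose from 330.8 to 598.4 and from 74.8 to 115.8 FPKM in WT DOX, and Hspa4 from 42.3 to 49.3 FPKM, a rise that was -0.03 on the log2 scale with median-ratio scaling. Between Sting-/- DOX and WT DOX, 1 rose (Dnaja1, from 28.4 to 50.8 FPKM) and 6 fell (1 and 8 with median-ratio scaling). Of all genes tested, 54.1% were called higher there and 29.7% lower. Hspd1, Bag3 and Hspe1 were lower by the most (-2.26, -1.23 and -1.15 on the log2 scale). The part of tissue handling in the members' values was not tested.

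Sting-/- DOX against saline shares its libraries with the comparisons above. In it 63.0% of all genes tested were called higher and 25.9% lower, with a median log2 difference of 0.49. The immediate early list gave 31 genes higher and 5 lower (27 and 8 with median-ratio scaling). Thbs1, Ccn2 and Ier5l were highest (log2 differences of 5.46, 3.77 and 2.52) and Per1, Sik1 and Cited2 lowest (-1.56, -1.24 and -0.37). Among the AP-1, ATF and Maf genes 11 were higher and 1 lower (5 and 4 with median-ratio scaling), led by Batf, Jdp2 and Maff (1.97, 1.85 and 1.81), with Atf1 lower (-0.46). Among feedback genes 15 were higher and 3 lower (11 and 6 with median-ratio scaling), with Zfp36l1, Zfp36l2 and Dusp6 highest (2.13, 1.79 and 1.73) and Dusp10, Dusp8 and Dusp5 lowest (-1.18, -0.77 and -0.42). Upstream genes split into 15 higher and 11 lower (10 and 19 with median-ratio scaling), with Elk3, Rps6ka1 and Mrtfa highest (2.38, 2.28 and 1.94) and Prkaca, Camk2d and Rps6ka5 lowest (-1.57, -1.09 and -0.92). Rxrg was lower (-2.50), and Rxrb (0.54) and Rxra (0.16) were higher but turned to -0.03 and -0.40 with median-ratio scaling. Of the heat shock genes 3 were higher and 7 lower (1 and 11 with median-ratio scaling). Hspd1, Hspa1a and Bag3 were lowest (-2.53, -1.54 and -1.46) and Dnaja1 highest (0.97), while Hsp90aa1 (0.35) and Hspb1 (0.17) turned to -0.24 and -0.42 with that scaling.

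The cell type markers moved with the groups. The 8 cardiomyocyte markers averaged 51280, 33080 and 8154 FPKM in sum in saline, WT DOX and Sting-/- DOX, while the 7 endothelial markers summed to 293.2 to 301.9, 281.3 to 288.3 and 1193 to 1279 FPKM. The 5 neutrophil markers summed to 6.31 to 7.02, 209.1 to 276.2 and 82.2 to 97.5 FPKM, and the 6 macrophage markers to 319.2 to 365.1, 1001 to 1140 and 1965 to 2029 FPKM. In Sting-/- DOX against WT DOX, 8 of 8 cardiomyocyte markers were called lower and 7 of 7 endothelial markers higher (29.7% and 54.1% of all genes tested). In WT DOX against saline 5 of 5 neutrophil and 6 of 6 macrophage markers were called higher and 6 of 8 cardiomyocyte markers lower (45.3% and 21.5% of all genes). Fibroblast markers were called higher there for 5 of 6 and T cell markers for 2 of the 2 tested, and erythroid markers lower for 4 of 4. The remaining lists were mixed, with 1 higher and 3 lower of 7 endothelial, 2 and 2 of 5 smooth muscle, and 1 and 2 of 4 mesothelial markers. With median-ratio scaling, 0 endothelial markers were higher and 6 lower. In summed FPKM, the fibroblast, smooth muscle, mesothelial and erythroid lists were higher in all Sting-/- DOX libraries than in all others. Single markers went the other way: Pdgfra averaged 9.09 FPKM in Sting-/- DOX against 9.64 in WT DOX, and Rgs5 125.0 against 159.6 in saline. The T cell list was low throughout (1.82 to 8.92 FPKM in sum), and 0 markers were at 0 in every library of a group. In bulk heart RNA, fewer cells of a type and less RNA per cell cannot be told apart. The part of these shifts in the members' values was not tested.

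**Figure D5:**
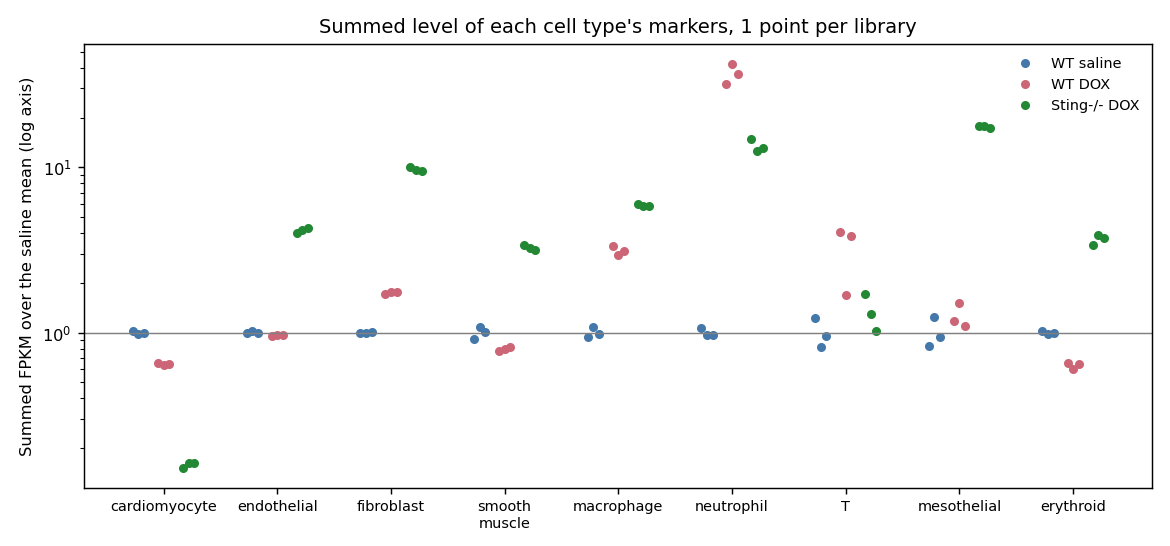
Summed FPKM of each cell type's markers over the saline mean (vertical axis, log scale), 1 point per library, by cell type (horizontal axis). Cardiomyocyte markers fell to 0.152 to 0.163 of the saline mean in Sting-/- DOX while endothelial markers were at 4.03 to 4.32 times it, and neutrophil markers were highest in WT DOX.

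Relative to the marker sums, the groups ran in another order than in FPKM for every member by at least 1 measure. The mean of every member was lower in Sting-/- DOX than in WT DOX per endothelial markers. It was highest in Sting-/- DOX per cardiomyocyte markers. Per 1000 FPKM of summed endothelial markers, Nr4a2 averaged 5.735, 2.43 and 1.70 in saline, WT DOX and Sting-/- DOX, and Fosb 1.80, 1.60 and 1.195. The DOX groups overlapped for Nr4a2 on that scale. Per 1000 FPKM of summed cardiomyocyte markers, Nr4a1 was at 1.03 ± 0.032 in saline, 0.275 ± 0.056 in WT DOX and 1.76 ± 0.056 in Sting-/- DOX (SD, n = 3 each). Per 1000 FPKM of summed endothelial markers it was at 177.9 ± 2.602, 31.7 ± 5.58 and 11.6 ± 0.250. WT DOX was below saline by either measure, and the place of Sting-/- DOX depended on the measure. Ier2 was at 43.7 ± 3.59, 68.1 ± 4.56 and 44.0 ± 3.14 per 1000 FPKM of endothelial markers and Egr1 at 42.7 ± 2.57, 49.7 ± 1.26 and 24.3 ± 0.451, so neither was above WT DOX in Sting-/- hearts on that scale. Per 1000 FPKM of cardiomyocyte markers both were highest in Sting-/- hearts and kept the order they had in FPKM. Ier2 was at 0.253 ± 0.0298, 0.588 ± 0.0275 and 6.67 ± 0.473 and Egr1 at 0.247 ± 0.00682, 0.430 ± 0.0232 and 3.68 ± 0.0885. Junb was at 60.0 ± 3.35, 176.5 ± 7.01 and 45.2 ± 1.96 per endothelial and 0.346 ± 0.015, 1.52 ± 0.015 and 6.85 ± 0.228 per cardiomyocyte markers, above saline in WT DOX by either measure and in Sting-/- DOX by the latter alone.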

How the data were processed

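Sample titles gave the groups and replicate numbers. Per the labels' protocols, a QIAGEN kit was used for RNA and the MGIEasy kit for libraries. For each library the authors deposited FPKM values by gene ID. The submitters' processing notes name HISAT2 2.0.4, Bowtie2 2.2.5, RSEM 1.2.12 and GRCm39, with no role given. Because FPKM depends on the library's total, changes in abundant genes can shift all others. A RefSeq table (GRCm38.p6) matched 16825 IDs to symbols and left 48 unmatched. Depth was estimated from the low values of 1247 single-transcript genes, of which 43.4% to 58.8% lay within 0.1 reads of a whole number, so whole reads could not be recovered.

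The test was limma 3.58.1 in R 4.3.3 on log2(FPKM + 1) (trended variance prior, all 9 libraries, 6 residual degrees of freedom, two-sided, Benjamini-Hochberg adjustment over 12485 genes averaging 1 FPKM or more, threshold 0.05). The fit was tested on simulated data. Python 3.11.15 was used for joins and figures. The members and lists were chosen with earlier results of these data known. Names follow a rule: all members, Sting1, up to 3 called genes with the largest rise and 3 with the largest fall per list and comparison, and the 5 genes nearest to Nr4a1. Fosl2 and Jund were also named to complete their families, and Rxrb to complete its own. Creb1 was named because other genes are described by their link to CREB. Fosl1 and Egr4 were not analysed here. A gene that the rule names is not reported here. Alternatives covered pseudocount, filter, scaling, samples in the fit, variance prior, a replicate block and leaving out each library. Scaling without cardiomyocyte and erythroid markers was added after the data were seen.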

Additional observations from a re-analysis of the deposited data

How the results depend on the processing

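Under every alternative run, some differences kept their direction and stayed past the threshold. In WT DOX against saline these were Nr4a1, Junb, Atf3 and Ier2, and in Sting-/- DOX against WT DOX Egr1, Ier2 and Nr4a1. Nr4a2 did so in both comparisons wherever it was fitted, but a stricter filter on mean FPKM left it out. This is a description only, since these members were chosen with these contrasts in view. Nr4a2 was in the fit only through the groups where it was higher. Smaller differences changed sign with scaling. With median-ratio scaling these were Jun (-0.24) and Egr1 (-0.08) in WT DOX against saline, Jun (-0.09), Junb (-0.19) and Atf3 (-0.052) in Sting-/- DOX against WT DOX, and Nr4a2 (-0.20) and Jun (-0.33) in Sting-/- DOX against saline. With quantile normalization they were Jun (-0.18) and Egr1 (-0.059) in WT DOX against saline, and Nr4a2 (-0.42) and Jun (-0.084) in Sting-/- DOX against saline. Jun in WT DOX against saline was -0.026 with TPM scaling, -0.08 when scaled without cardiomyocyte and erythroid markers, and -0.034 to 0.037 when each library was left out in turn. Counts called in either direction stayed within 1.5 times under all alternatives for all genes, the members and the 6 lists of related genes, while their split by direction moved as given with each list. Among cell type lists, macrophage markers called in Sting-/- DOX against WT DOX went from 5 to 3 with median-ratio scaling, and T cell markers called went from 2 to 1 (WT DOX against saline, median-ratio or quantile) and from 1 to 2 (Sting-/- DOX against WT DOX, quantile). Leaving out each library gave 7726 to 8328, 10147 to 10478 and 10898 to 11094 genes called in the 3 comparisons.

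Same-numbered libraries did not deviate together (r of -0.032 to 0.104 over 9 pairs, 1 above 0.1, against -0.066 to 0.035 for other pairs), so the numbers were not taken to pair them. With a replicate block, 8247 genes were called in WT DOX against saline (8331 without it), and 7 of 8 members with it and without it. The approximate depth limits Nr4a2, Nr4a3 and Fosb most, whose levels lie near 1 FPKM.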
